A study of Ovis aries with 16 samples.

Results

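The hippocampus of late-gestation fetal sheep (Ovis aries) was compared with and without ketamine in normoxia, 24 h after the start of a sham stimulus, to see how far transcript levels moved when ketamine was given alone. The arrays compared are those whose sample labels give normoxia with ketamine (NK, 4 fetuses) or normoxia without ketamine (NC, 3 fetuses), which are 7 of the 16 arrays of the series. The other arrays come from 5 fetuses in hypoxia without ketamine (HC) and 4 in hypoxia with ketamine (HK), and they enter here through the shared fit and for context only.

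The study asked whether ketamine changes how the fetal brain responds to a brief lack of oxygen, and the normoxic groups show what the drug does without that stimulus. NK fetuses received 3 mg/kg of ketamine into a vein before a 30 min period in which the ewe had normal oxygen, and NC fetuses went through the same period with no ketamine. The whole hippocampus was taken after 23.5 h of further normoxia. All fetuses had been catheterised in earlier surgery under isoflurane with ampicillin, most were twins, and pregnancies rather than fetuses were assigned to normoxia or hypoxia.

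Several features limit these groups as a model of ketamine in the fetal brain. There was a single dose and a single collection time, so a response that had come and gone within a day would not be seen. The sources used here name no vehicle injection for NC. The sex of the fetuses and the link between fetuses and pregnancies are not given either, so twins may lie in both groups.

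Ketamine blocks the NMDA receptor, a glutamate-gated channel that needs the GRIN1 subunit and admits calcium into neurons. The AMPA receptors, built from the GRIA subunits, carry most fast excitatory signals between the same cells. The hippocampus is rich in both, and synaptic activity there switches on immediate early genes such as FOS and EGR1 for a short time. Ketamine is used as an anaesthetic, and in other settings it has been studied both for toxicity to immature neurons and for lowering inflammatory signals.

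Each fetus gave 1 one-color array, labeled with Cy3. Before scaling, the 75th percentile of the probe intensity was 1086.4, 1025.4 and 901.4 in NC and 971.7, 1063.5, 998.2 and 906.2 in NK, and 77.52% to 80.29% of spots exceeded 13 standard deviations of the background, the limit for the scanner software's mark "well above background". The brightness of the arrays therefore overlapped between groups. Levels below are log2 intensity minus the 75th percentile of that array, so 0 is a bright probe and values near -7 are close to background, and a difference of 1 is 2-fold. Levels of different probes are not compared with each other. Of 15008 probes, 12545 had that mark on 3 or more of the 16 arrays and were tested, and 1159 of these carried a name, for 760 genes. The other 11386 are known by probe identifier alone. The number of arrays limits the precision. The p-values of single probes rest on the spread between fetuses inside all groups of the shared fit, hypoxia included.

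The labelled tissue was checked against genes of its cells. The neuronal genes SST, which encodes somatostatin of inhibitory neurons, and GRIA2 had levels of 4.40 to 5.19 and 2.05 to 2.45 over the 7 arrays, and NEUROD1, a factor of young granule neurons, had levels of 1.20 to 2.03. AQP4, the water channel of astrocytes, had levels of 5.60 to 6.04. All 4 were well above background on every array. No probe carried the name of any of the 10 listed oligodendrocyte genes, and none carried the name PROX1, a marker of dentate granule cells, so the lists do not tell the hippocampus from neighbouring forebrain.

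A day after ketamine, most transcripts of the hippocampus differed little between the groups. The probes bounded within 2-fold numbered 10255, and 5826 with normexp background correction. Among the named genes that met the criterion below, EPAS1 and glut4 were higher and ARNT, AHR, MYC, IRAK4 and BAX were lower in NK, and none passed adjustment. For EPAS1 and glut4, signal was well above background on 1 of the 3 NC arrays. The second probes of EPAS1 (0.51), glut4 (0.27), MYC (-0.36), IRAK4 (0.01) and BAX (-0.25) did not meet the criterion. ARNT, AHR and IRAK4 changed sign with normexp background correction. EPAS1 (1.12) and glut4 (1.18) lost the criterion there, beside a median of 0.91 in the dimmest of 4 equal sets of probes. IRAK4 and BAX lost it with a block for replicate number within oxygen groups. The reference, heat shock and astrocyte genes tested had differences bounded within 2-fold on their brightest probes, apart from the saturated PPIA. Each of the 5 glutamate receptor genes with a probe had a lower mean in NK, though none passed the test and GRIA4 also turned with normexp. The genes that varied most, among them TTR and IGF2, varied between fetuses inside both groups.

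At an unadjusted p under 0.05 in limma's moderated test, called the criterion here, 89 probes were higher in NK (0.709% of those tested) and 134 were lower (1.07%), together 223 (1.78%). After Benjamini-Hochberg adjustment in limma 0 of the 12545 probes passed, against those 223 unadjusted, and the smallest adjusted p was 1. That p holds for every gene named below, so each named difference failed the correction. The median difference was 0.65 among the higher probes and -0.50 among the lower ones, and 12 and 15 of them carried a gene name. The groups did not overlap for 438 probes (3.49%), 170 higher and 268 lower in NK, and 114 of these met the criterion. Neither share exceeded what chance alone gives. Chance puts a share of 0.05 of probes past the criterion, and 1.78% met it. With the 35 ways to part the arrays equally likely, chance separates the groups in a share of 0.0286 in each direction. Both directions together held 3.49%. Neither mark alone therefore tells a ketamine difference from chance.

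These counts moved with single arrays and with blocks for replicate number. Without NC3 the higher count was 156, and without NK1 it was 145. With a block for replicate number inside normoxia and inside hypoxia the counts were 150 and 237, in a fit that gives no weight to NK4 and HC5 because no other sample of their oxygen group has their number. Over all groups that block gave 120 and 198 and leaves out HC5. The number coincides with slide and array row, so pairing and position cannot be told apart. With the slide as a block the counts were 104 and 169. They were 92 and 120 on slide 1 alone (numbers 1 and 2) and 119 and 158 on slide 2 alone, where NC has 1 array, assumed to vary like the other groups. With normexp background correction they were 10 and 8, so the lower probes no longer outnumbered the higher ones. That correction moved the median difference of all probes from 0.003 to 0.28.

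The sizes of the differences were small for most of the transcriptome. Over all probes tested the median absolute log2 difference was 0.0995, against a median standard error (SE) of 0.19. That median difference was 0.308 with normexp background correction. It was 0.036 in the deposited log2 table, which holds small differences among dim probes. The absolute difference was below 0.37 for 90% of probes, 0.53 for 95% and 1.03 for 99%. For 9937 probes (79.2%) it was smaller than its own SE. The typical standard deviation between fetuses was 0.18 in NC and 0.21 in NK, larger than the typical difference between the groups.

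The 95% interval of each difference says how large a change the fit still allows, with the spread taken from all 16 arrays. It lay wholly within 2-fold in either direction for 10255 probes (81.7%), and for 0 probes did it lie wholly beyond 2-fold, in the same limma fit that put 223 past the criterion. With normexp background correction 5826 probes were bounded within 2-fold. Among the 11074 probes well above background on all 7 arrays, 9898 (89.4%) were bounded within 2-fold. Among the other 1471 probes, 357 were (24.3%). The interval was too wide to exclude a 2-fold change for 2290 probes, so for those these arrays do not settle whether the level moved by 2-fold. Of the 223 probes that met the criterion, 113 also had an interval within 2-fold, which makes their differences small as well as past the threshold.

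**Figure D1:**
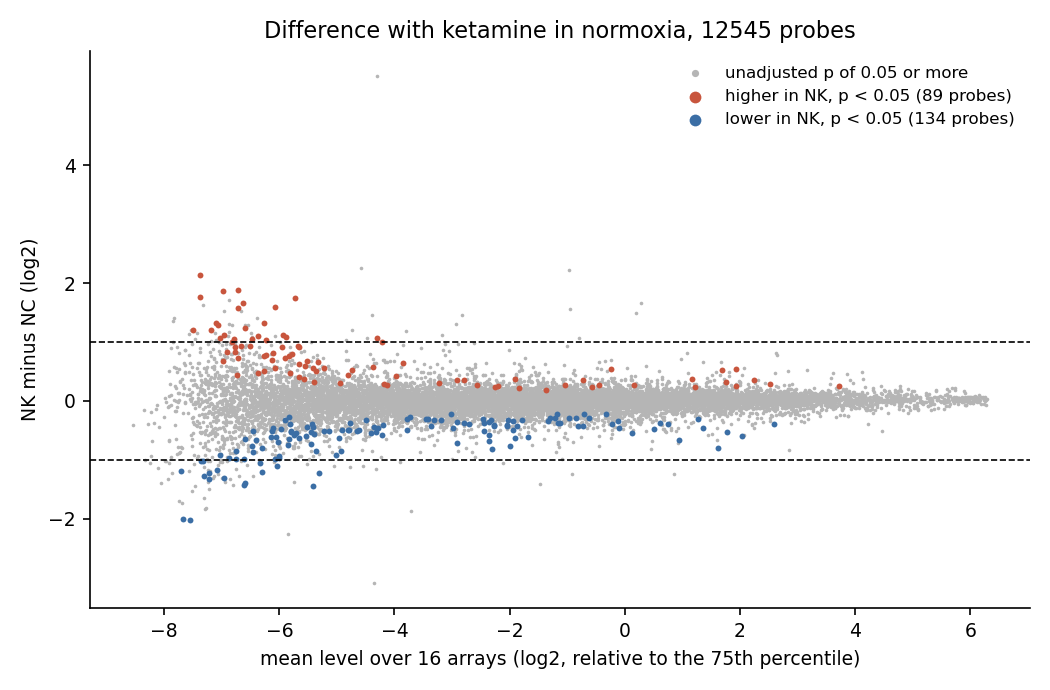
Each point is 1 of 12545 probes, with its mean log2 level over the 16 arrays on the x axis and the log2 difference NK minus NC on the y axis; red and blue mark the 89 higher and 134 lower probes past the criterion and dashed lines mark 2-fold. The spread is widest among dim probes and narrows toward bright ones.

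Precision differed with brightness. With the probes ordered by mean level over the 16 arrays into 4 equal sets, in the dimmest set (3137) the median SE was 0.34, 135 probes met the criterion (4.3%) and 52.3% were bounded within 2-fold. In the brightest (3136) the median SE was 0.15, 19 met the criterion (0.606%) and 95.7% were bounded. The sets between had 44 (1.4%) and 25 (0.797%) past the criterion. A difference over 2-fold occurred in 141 probes, 65 higher and 76 lower, of which 126 lay in the dimmest set and 1 in the brightest. As the plot of difference against level shows, the spread narrows steadily with brightness. Of the 141, 42 met the criterion, 31 had groups that did not overlap, and 20 were well above background on all 7 arrays. Over those bright probes the differences ran from -1.41 to 1.66, and over all probes tested from -3.08 to 5.51.

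Whole profiles were compared by the root mean square log2 distance between arrays over the probes tested. The 12 pairs of an NC with an NK array were 0.54 apart on average (0.40 to 0.67). The 3 pairs inside NC were 0.55 apart (0.52 to 0.58) and the 6 pairs inside NK 0.59 (0.53 to 0.66). Fetuses of different groups were thus on average no farther apart than fetuses of the same group, with a mean between groups minus mean within of -0.0291. In a one-sided exact permutation test, 32 of the 35 ways to part the arrays gave a difference as large (p = 0.914, where the smallest possible is 0.0286). These ways ignore the replicate numbers, although all 3 pairs with the same number lie between the groups and were closer on average, which lowers the mean between groups.

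**Figure D2:**
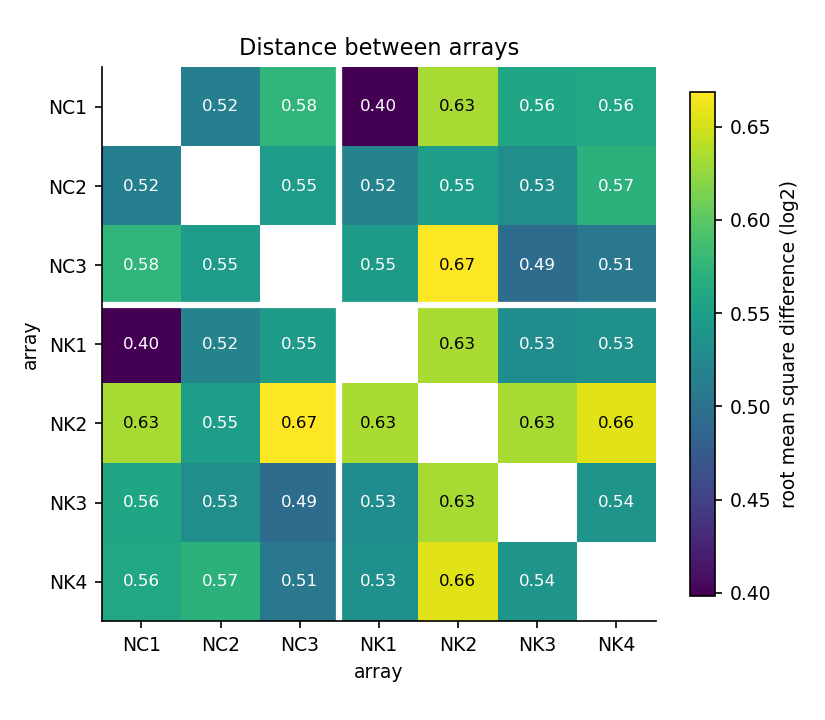
Root mean square log2 difference over the probes tested for every pair of the 7 arrays, as a number and a color in each square, with white lines between NC and NK. NC1 with NK1 is the closest pair at 0.40, and NK2 is far from most arrays of both groups.

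The closest pair of all was NC1 with NK1, at 0.40, and the farthest was NC3 with NK2, at 0.67. Pairs with the same number averaged 0.48 over 3 pairs and pairs across groups with other numbers 0.57 over 9. The distance plot shows NK2 standing apart: its mean distance to the other arrays was 0.63, the highest of the 7, while that of NK1 was 0.53, the lowest. For single probes, the array farthest from the median of the 7 arrays was NK4 in 23.4% of probes and NK2 in 20.2%, against 9.07% for NK1.

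Among the named genes were 3 of the PAS family, transcription factors that work as pairs. EPAS1 is the HIF-2 alpha subunit that responds to low oxygen, AHR is a receptor for small molecules and ARNT is the partner both need. The EPAS1 probe A_70_P014652 had levels of -6.85, -5.77 and -5.80 in NC and -5.62, -5.14, -4.99 and -5.11 in NK. All 4 NK fetuses lay above all 3 NC fetuses. EPAS1 rose by 0.93 (SE 0.26), but it was well above background on 1 of the NC arrays and 4 NK arrays, so the size is uncertain. ARNT, by probe A_70_P002837, was at -5.67, -5.50 and -5.71 in NC and -5.92, -6.21, -6.14 and -6.16 in NK. Every NK value was below every NC value, and the level fell by 0.48 (SE 0.14). For AHR the levels were -5.21, -4.93 and -4.82 in NC and -5.39, -5.44, -5.31 and -5.34 in NK. Again the groups did not overlap, with 4 NK values in a narrow band below NC, and AHR fell by 0.38 (SE 0.17). HIF1A, the other oxygen-regulated alpha subunit, did not pass the test (-0.29, SE 0.19), though it did with the replicate block within oxygen groups (-0.37), and NC and NK shared part of their range. As measured, EPAS1 and ARNT met the criterion with any 1 array left out, but not in the deposited log2 table, where they were 0.04 and -0.03. That table holds small differences among dim probes, with a median absolute value of 0.016 in the dimmest set against 0.208 as reported, so it says little about them. Without NC1 the EPAS1 difference was 0.57. AHR lost it without NC2 (-0.36), NC3 (-0.30), NK1 (-0.38), NK2 (-0.36) or NK4 (-0.39). With normexp, ARNT and AHR turned to 0.82 and 0.84, beside a median of 0.91 for the probes of the dimmest set.

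EPAS1 and ARNT were each measured by 2 probes that share 59 of 60 bases, shifted by 1 base, so the pairs test whether near-identical sequences give the same answer. They are printed with the shared bases in capitals.
EPAS1 A_70_P014651: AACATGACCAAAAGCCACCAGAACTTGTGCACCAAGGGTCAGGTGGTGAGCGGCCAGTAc
EPAS1 A_70_P014652: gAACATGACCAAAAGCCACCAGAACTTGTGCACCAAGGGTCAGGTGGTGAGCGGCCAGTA
ARNT A_70_P002836: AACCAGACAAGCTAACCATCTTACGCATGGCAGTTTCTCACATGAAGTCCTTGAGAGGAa
ARNT A_70_P002837: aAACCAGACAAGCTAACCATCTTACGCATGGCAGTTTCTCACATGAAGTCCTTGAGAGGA

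The other ARNT probe had levels of -5.89, -5.33 and -4.94 in NC and -5.98, -6.15, -6.91 and -6.36 in NK. The groups again did not overlap, and its difference of -0.97 (SE 0.32) met the criterion. The other EPAS1 probe read -6.14, -6.53 and -5.68 in NC and -5.91, -4.86, -5.74 and -5.90 in NK. NK2 alone stood clear of NC there, the other NK fetuses lay among the NC values, and the difference of 0.51 (SE 0.26) did not meet the criterion. Both ARNT probes thus passed and only 1 of the EPAS1 probes did. With the replicate block within oxygen groups the other ARNT probe, at -0.96, no longer did.

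The largest named difference was in glut4, the insulin-responsive glucose transporter. Its probe A_70_P041221 had levels of -7.19, -5.71 and -6.61 in NC and -4.79, -4.12, -4.21 and -5.93 in NK. NK1, NK2 and NK3 lay above all NC arrays, and NK4 fell inside the NC range. The difference was 1.74 (SE 0.52), but signal was well above background on 1 NC array and 4 NK arrays, so its size is uncertain. With the unmarked arrays taken at the dimmest marked spot of the array, or as measured where brighter, a choice made after seeing the data, it was 1.63. The second glut4 probe shares all but 1 base with the first, marked again in capitals.
glut4 A_70_P041221: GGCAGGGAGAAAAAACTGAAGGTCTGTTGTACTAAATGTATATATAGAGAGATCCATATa
glut4 A_70_P041222: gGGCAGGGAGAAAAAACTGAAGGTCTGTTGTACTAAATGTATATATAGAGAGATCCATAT

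That second probe read -6.73, -5.57 and -5.55 in NC and -7.17, -4.03, -5.49 and -6.04 in NK. NK2 and, by a narrow margin, NK3 were above NC on it, and NK1, which was high on the first probe, was the lowest of the 7. The difference was 0.27 (SE 0.55) and did not pass, so the glut4 result rests on 1 probe of a nearly identical pair.

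The other raised genes met the criterion less firmly. PLIN5, a coat protein of lipid droplets, had levels of -4.03, -4.29 and -4.26 in NC and -3.95, -2.83, -3.72 and -3.66 in NK. NK2 was far above the rest and NK1 only just above NC, with no overlap. The rise of 0.65 (SE 0.27) missed the criterion without NC2 (0.60), NC3 (0.62) or NK2 (0.41). A second PLIN5 probe, which shares 59 of 60 bases, gave 0.45 (SE 0.29) with overlapping groups and did not meet the criterion. HAND1, a transcription factor of heart development, was higher by 0.44 (SE 0.16), with -5.26, -5.16 and -4.79 in NC and -4.65, -4.43, -4.94 and -4.53 in NK. NK3 lay inside the NC range, and the difference was 0.67 on slide 1 and 0.06 on slide 2. HAND1 missed the criterion without NC1 (0.34) or NC2 (0.39) and with the replicate block within oxygen groups (0.40). Its second probe gave 0.44 (SE 0.215) and did not meet the criterion. SLC66A2 was higher by 0.43 (SE 0.15), at -4.19, -4.34 and -3.97 in NC and -3.98, -3.44, -3.75 and -3.77 in NK. NK1 overlapped with NC3, and without NC2 the difference was 0.34 and no longer passed.

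A further pair of raised genes lay close to background, with 1 NC array and 4 NK arrays well above it. TPSB2, a tryptase of mast cells, was at -7.00, -6.44 and -7.88 in NC and -6.38, -6.12, -6.44 and -6.44 in NK. NC2 matched the lower NK arrays and NC3 was far below. The TPSB2 difference of 0.76 (SE 0.35) rests partly on NC1 and NC3, whose levels were not well above background, and with these at the dimmest marked spot, or as measured where brighter, it was 0.28. As measured it missed the criterion without NC1 (0.82), NC3 (0.37), NK1 (0.77), NK2 (0.69), NK3 (0.79) or NK4 (0.79). A second TPSB2 probe did not meet the criterion and was well above background on no NC array, so no size is given. ATP7B, a copper-transporting ATPase, read -5.87 on NC1 and -6.28 on NC3, with the spot on NC2 left out as an outlier, and -5.40, -4.77, -5.38 and -6.02 in NK. NK4 lay within the NC range and NK2 was the highest. ATP7B rose by 0.68 (SE 0.28), missed the criterion without NC3 or NK2 (0.47 each), and had a difference of 0.21 (SE 0.23) on a second probe with overlapping groups. The first probe had a difference of -0.31 in the deposited log2 table.

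Among the lowered genes, 2 were bright. MYC, a transcription factor of growth and proliferation and an immediate early gene, had levels of 0.02, 0.02 and -0.21 in NC and -0.33, -0.71, -0.51 and -0.21 in NK. NK4 and NC3 were equal to the printed precision with NK4 the lower, so the groups did not overlap. MYC fell by 0.39 (SE 0.15), and its other probe, which shares 20 bases, had a difference of -0.36 (SE 0.18) with no overlap either, and passed with the replicate block within oxygen groups (-0.44). BAX, which opens the mitochondrial membrane in apoptosis, was at -0.49, -0.54 and -0.76 in NC and -0.89, -0.86, -0.95 and -0.87 in NK. The 4 NK fetuses were tightly grouped below NC, the level fell by 0.30 (SE 0.13), and the second probe gave -0.25 (SE 0.14), also without overlap. MYC missed the criterion without NC1 (-0.35), NC2 (-0.35) or NK2 (-0.30), and BAX without NC1 (-0.24), NC2 (-0.27), NK1 (-0.30) or NK3 (-0.28).

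A further 3 lowered genes act in innate immune signaling, though 8 of the 12 genes tested in the TLR list had a positive difference. IRAK4, a kinase that relays Toll-like receptor signals, had levels of -4.20, -4.13 and -4.43 in NC and -4.69, -4.66, -4.59 and -4.85 in NK. The groups were apart on this probe and it fell by 0.45 (SE 0.16), but a second IRAK4 probe with no bases in common had a difference of 0.01 (SE 0.27) and overlapping groups. TRAF3, an adaptor of the same pathways, was at -2.01, -2.02 and -2.17 in NC and -2.50, -2.52, -2.15 and -2.59 in NK. NK3 lay among the NC arrays while the other NK fetuses were clearly lower. TRAF3 fell by 0.37 (SE 0.14), and its second probe, -0.31 (SE 0.14), also met the criterion. TLR5, the receptor for bacterial flagellin, read -5.05, -5.07 and -5.16 in NC and -5.10, -5.80, -5.74 and -5.85 in NK. NK1 sat with NC and the other 3 NK values lay below, and TLR5 fell by 0.53 (SE 0.22). It met the criterion in 1 of the 7 fits with an array left out, IRAK4 in 6 (-0.39 without NC2) and TRAF3 in 4 (-0.34 without NC1, -0.35 without NC2 and -0.32 without NK4). For TLR5 the values that missed were -0.51, -0.52 and -0.56 without NC1, NC2 and NC3 and -0.47, -0.49 and -0.45 without NK2, NK3 and NK4.

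Another lowered gene was dim. TGF-A, a ligand of the EGF receptor, fell by 1.05 (SE 0.47), with -5.77, -5.21 and -5.22 in NC and -6.90, -5.68, -7.34 and -5.89 in NK. NK1 and NK3 were far below the rest and NK2 was inside the NC range, and without NK3 the difference was -0.76. It was well above background on 3 NC arrays and 2 NK arrays, so the size is uncertain, and with the unmarked arrays at the dimmest marked spot it was -0.87. The probe lost the criterion without NK3 and without NC2 (-0.96), NC3 (-0.96) or NK1 (-0.91), and with the slide as a block (-1.03). Its second probe, which shares 59 of 60 bases, differed by -0.54 (SE 0.47) and did not meet it, but did with the replicate block within oxygen groups (-0.60).

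DDIT3, which encodes CHOP of the endoplasmic reticulum stress response, shows how a single array can carry a call. Its probe A_70_P049676 read -5.47, -5.43 and -4.15 in NC and -5.72, -5.43, -5.73 and -5.43 in NK. NC3 alone was high and the other 6 arrays lay within a narrow range. The difference was -0.56 (SE 0.26), but it was -0.13 without NC3, and -0.12 on slide 1 against -1.43 on slide 2, where NC3 is the only NC array. It also missed the criterion without NK1 (-0.51), NK2 (-0.61), NK3 (-0.51) or NK4 (-0.61). The second probe shares 59 of 60 bases with it, in capitals, and NC3 was not high there.
DDIT3 A_70_P049676: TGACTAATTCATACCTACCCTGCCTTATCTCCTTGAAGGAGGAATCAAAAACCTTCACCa
DDIT3 A_70_P049677: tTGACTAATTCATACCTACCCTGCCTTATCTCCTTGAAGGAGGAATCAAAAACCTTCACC

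On that probe DDIT3 was at -5.30, -5.49 and -5.38 in NC and -5.40, -5.14, -5.44 and -5.10 in NK, a difference of 0.12 (SE 0.16) with the opposite sign.

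**Figure D3:**
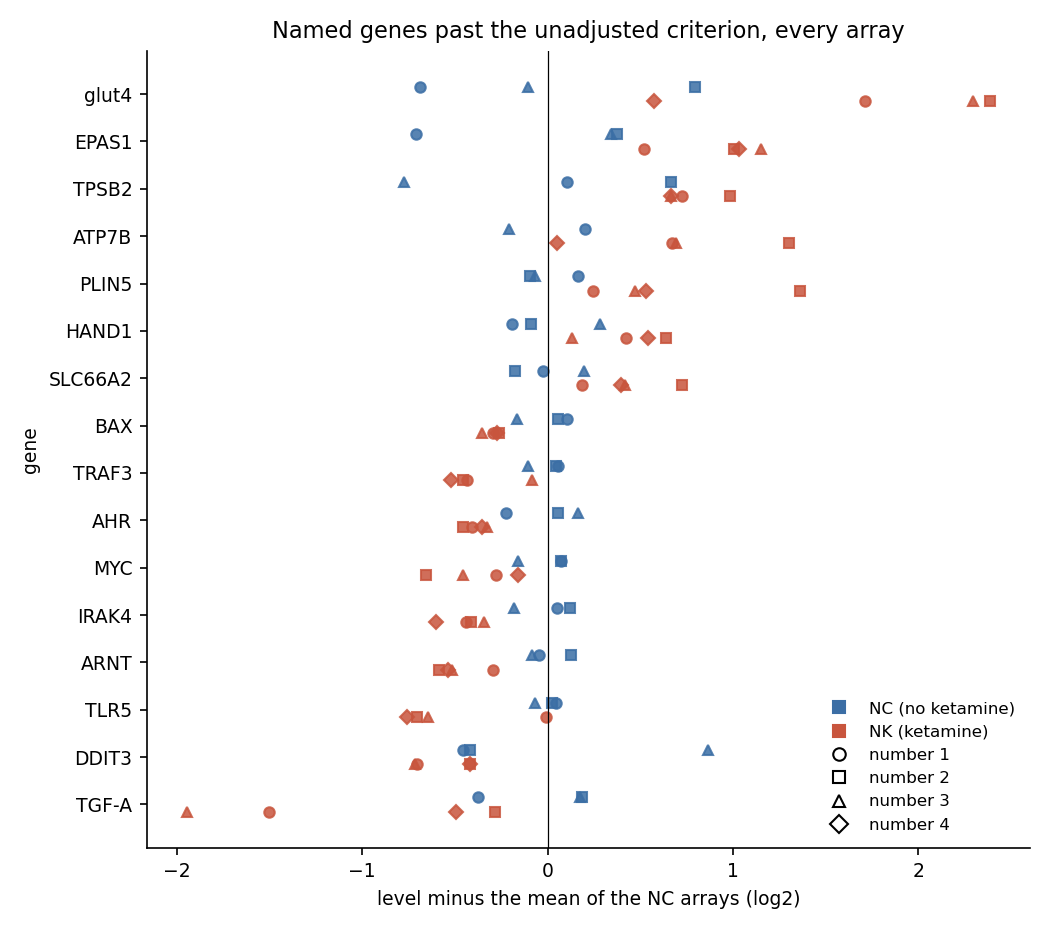
Log2 level minus the NC mean of the same probe (x axis) for 16 of the 17 named genes past the criterion (y axis), with NC in blue, NK in red and a marker shape for each replicate number. The groups are apart for 7 of the 16 drawn, and single arrays such as NC3 for DDIT3 stand out.

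In all, 17 named genes met the naming rule, 7 higher and 10 lower in NK, and the plot of levels, which draws 16 of them, shows 7 whose groups did not overlap. Of the 14 further probes for these genes 12 had the same sign and 2 met the criterion. All 17 kept their sign on slide 1 and on slide 2. They were chosen by their difference on the same arrays, so a kept sign was largely set by that choice. On slide 1 alone 8 met the criterion, and 16 did with the slide as a block. With the replicate block within oxygen groups 11 met it, and TPSB2 (0.79), HAND1 (0.40), DDIT3 (-0.61), TLR5 (-0.45), IRAK4 (-0.40) and BAX (-0.30) did not. With normexp, 8 of the 10 lowered genes turned positive and 1 of the 17 met the criterion, and 6 did so with the deposited values.

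Some genes outside the naming rule are given because they met the criterion without signal well above background on a whole group, and were chosen after their values were seen. For these only a bound is given: on each array of the group without signal, the level was taken as the dimmest spot that was well above background, or as measured where that was brighter. The bound concerns the group means of these arrays and makes no allowance for the spread between fetuses. STAR, which carries cholesterol into mitochondria at the start of steroid synthesis, had levels of -6.94, -7.03 and -7.19 in NC and -7.33, -6.27, -5.61 and -5.78 in NK by probe A_70_P039531. No NC array and 3 NK arrays were well above background, and NK1 lay below all of NC. By this bound the NK mean was at least 1.34-fold higher. A second STAR probe was at least 1.27-fold higher. GHRHR, the receptor for growth hormone releasing hormone, was at least 1.40-fold higher and FSHR, the receptor for follicle-stimulating hormone, at least 1.28-fold, each on 3 NK arrays and no NC array. CYBB, ITGAL and MUC2 had probes that were lower at the criterion near background, and no fold is given for CYBB and ITGAL because the bound was under 1 or both groups lacked signal. MUC2, a mucin, was well above background on 2 NC arrays and 1 NK array, and no fold is given for it either.

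Most probes past the criterion have no gene name, and the 2 raised and 2 lowered ones with the smallest p are given by identifier. They are printed in lower case throughout, as no part is compared.
A_70_P032026: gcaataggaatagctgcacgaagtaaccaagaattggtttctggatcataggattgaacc
A_70_P030676: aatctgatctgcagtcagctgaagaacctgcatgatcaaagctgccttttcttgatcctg
A_70_P063866: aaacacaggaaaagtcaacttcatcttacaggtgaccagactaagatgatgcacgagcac
A_70_P049071: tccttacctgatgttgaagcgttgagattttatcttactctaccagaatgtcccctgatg

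A_70_P032026 read -6.49, -6.86 and -6.88 in NC and -5.94, -6.04, -6.03 and -5.31 in NK. All NK arrays were above all NC arrays and NK4 was the highest. The difference was 0.91 (SE 0.18), but 1 NC array and 4 NK arrays were well above background, and with the unmarked arrays at the dimmest marked spot, or as measured where brighter, it was 0.69. A_70_P030676 had signal well above background on no NC array and on NK arrays in 2 cases. By the bound described above, its NK mean was at least 1.04-fold higher. A_70_P063866 read -5.02, -4.73 and -4.15 in NC and -6.67, -6.03, -5.74 and -5.87 in NK, a difference of -1.45 (SE 0.33). A_70_P049071 read -2.86, -3.02 and -3.21 in NC and -3.42, -3.63, -3.42 and -3.39 in NK, with -0.43 (SE 0.11). A_70_P063866 and A_70_P049071 had groups that were apart, and both met the criterion with any 1 array left out. Under normexp the 2 lowered probes turned to 0.59 and 0.35.

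The receptor that ketamine blocks was measured through GRIN1. Its levels were -0.92, -1.05 and -1.04 in NC and -1.05, -1.85, -1.11 and -1.52 in NK. NK1 and NK3 were next to NC, NK2 and NK4 were lower, and the groups did not overlap by a narrow margin. The difference was -0.38 (SE 0.42) and did not meet the criterion, its 95% interval reached beyond 2-fold, and without NK2 the difference was -0.23. The AMPA receptor genes had differences of -0.21 (SE 0.27) for GRIA1, -0.10 (SE 0.18) for GRIA2, -0.19 (SE 0.22) for GRIA3 and -0.29 (SE 0.15) for GRIA4. With 1 array left out they ran from -0.32 to -0.12 for GRIA1, -0.15 to -0.01 for GRIA2 and -0.27 to -0.09 for GRIA3. GRIA4 came closest to the criterion, at -2.60, -2.75 and -2.71 in NC and -2.94, -3.23, -2.63 and -3.13 in NK. NK3 lay inside the NC range and the other 3 NK fetuses lay below it. So 5 of 5 glutamate receptor genes had a negative difference, 0 of 5 met the criterion, and the list median was -0.21 against 0.003 over all probes and 0.01 over all named genes. The median was -0.27 on slide 1 and -0.10 on slide 2, with 5 of 5 negative on each. It stayed between -0.23 and -0.17 under every scaling, but with normexp GRIA4 turned to 0.45 and GRIN1 was -0.12. With the replicate block over all groups GRIA4 (-0.29) met the criterion, as it did with slide and array row as blocks (-0.27) and without NK3 (-0.41). With the replicate block within oxygen groups it did not (-0.24). Without both arrays of number 2 the list median was -0.09. In bulk tissue, fewer cells of a type and less RNA per cell cannot be told apart.

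Other neuronal lists had medians on both sides of 0. All 3 genes of the first list below and 4 of the 5 immediate early genes were negative. The list of excitatory and inhibitory neurons had 3 genes tested, GRIN1, GRIA1 and SST, and a median of -0.21. For SST the difference was -0.03 (SE 0.55). Inhibitory and peptide neuron genes had a median of 0.07 over 4 genes, and monoamine, opioid and cholinergic receptors 0.02 over 3. Among the 5 immediate early genes, FOS had levels of -0.21, 0.29 and 0.69 in NC and 0.13, 0.32, 0.03 and -0.43 in NK. These overlapped widely, with a difference of -0.24 (SE 0.36). It was -0.03 without NC3 and -0.47 without NC1, and 0.19 on slide 1 and -0.89 on slide 2. For EGR1 the difference was 0.23 (SE 0.11). The median of this list was -0.15, but 0.09 on slide 1 and -0.27 on slide 2. The list of neurotrophin, AKT, mTOR and MAPK kinases had a median of -0.04 over 3 genes, and 0 genes of these lists met the criterion. MYC entered the immediate early list by its other probe, which met the criterion with the replicate block within oxygen groups (-0.44) and over all groups (-0.46).

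**Figure D4:**
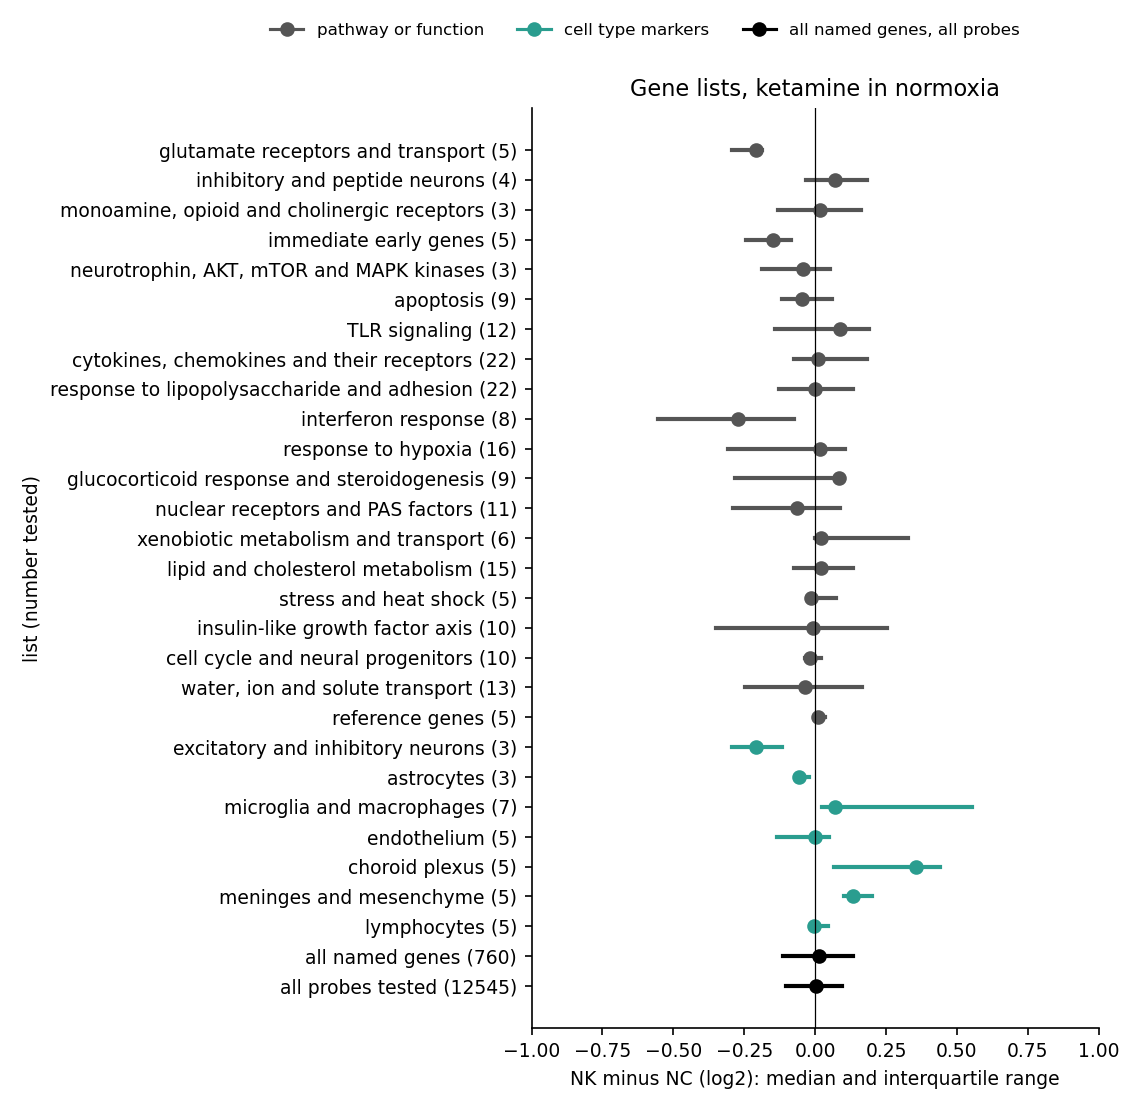
Median (point) and interquartile range (line) of the log2 difference NK minus NC over the tested genes of each list with more than 2, beside all 760 named genes and all 12545 probes. Most medians lie near 0, glutamate receptors and interferon genes lie lower and choroid plexus genes higher.

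Of the 21 pathway lists, 4 held a gene past the criterion when each gene was read by its brightest probe. The TLR list had 12 genes tested, TLR5 and TRAF3 lower, and a median of 0.09, which was -0.20 on slide 2. The hypoxia list had 16, with EPAS1 higher and ARNT lower, and a median of 0.02, which was -0.26 on slide 1. The list of nuclear receptors and PAS factors had 11, with EPAS1 higher and AHR and ARNT lower, and -0.06, which was -0.21 on slide 2. The glucocorticoid and steroidogenesis list had 9, with STAR higher, and 0.08, which was -0.06 on slide 2. Over all 760 named genes, read the same way, 8 were higher and 5 lower, and 71.3% were bounded within 2-fold. As the plot of lists shows, the medians ran from -0.27 to 0.09. Under normexp most of them shifted upward, while those of the glutamate, heat shock and reference lists moved down, so no direction is read from the dim lists.

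Most genes of cell upkeep were bounded. All 5 stress and heat shock genes had intervals within 2-fold on the probe read here, with a median of -0.01. DDIT3 entered by its second probe, and the interval of its first one reached beyond 2-fold. All 5 reference genes had intervals within 2-fold, with a median of 0.01, and GAPDH differed by -0.18 (SE 0.13). PPIA was saturated on all 7 arrays, so its small difference is not a measurement of stability. In the cell cycle and neural progenitor list 9 of 10 genes were bounded (median -0.02), and in the apoptosis list 8 of 9 (median -0.05). BAX entered that list by its second probe, which did not meet the criterion.

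Cytokine and adhesion genes were poorly bounded, whereas 10 of 12 in the TLR list were bounded. Of all named genes 1.71% met the criterion. In the cytokine and chemokine list 0 of 22 genes met it and 9 were bounded within 2-fold, with a median of 0.01. These 9 include CXCL1, which was saturated, so its narrow interval is not a measurement of stability. In the lipopolysaccharide and adhesion list 0 of 22 met the criterion and 6 were bounded, with a median of 0.00. The 6 include ITGAL, which was well above background on 1 NK array alone, so its interval is no bound on its expression. TLR2 differed by 0.13 (SE 0.32), TLR4 by -0.07 (SE 0.33) and MYD88 by 0.26 (SE 0.18), and all 3 were bounded. The chemokines CXCL8 and CXCL10 were not bounded. CXCL8 differed by 0.14 (SE 1.24), and CXCL10 ranged from -3.63 to -1.13 in NC and from -4.50 to -2.21 in NK. With an SE of 1.71, its interval reached beyond 2-fold in both directions. TNF (0.23, SE 0.73), PTGS2 (0.12, SE 0.95) and PTX3 (-0.16, SE 0.62) were also too variable to bound, whereas IL1B (-0.05, SE 0.36) and NFKBIA (0.17, SE 0.37) were bounded. These SEs come from the spread in all 4 groups, since the 16 arrays share a fit.

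Interferon genes had the lowest median of the pathway lists, -0.27 over 8 genes with 0 past the criterion, and it was -0.02 on slide 2 and 0.00 under normexp. ISG15, an interferon-induced ubiquitin-like protein, was at 1.72, 0.56 and -0.02 in NC and -0.47, -0.52, -0.58 and -0.36 in NK. NC1 was far above the others and all NK arrays were alike, with a difference of -1.23 (SE 1.14). All NK values lay below all NC values for ISG15 and for MX2, which differed by -0.37 (SE 0.99). Among all probes tested, 3.49% had groups that did not overlap in either direction. The SE of MX2 takes in HC, where it ran from -1.43 to 4.04, against a span of 0.912 over the NC and NK arrays. MX1 overlapped, with NC1 at 1.69 and the other 6 arrays between -0.27 and 0.48. The 2 genes tested of the histocompatibility list had a median of -0.06.

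The remaining pathway lists had 0 genes past the criterion. Their medians were 0.02 for xenobiotic metabolism (6 genes), 0.02 for lipid and cholesterol metabolism (15), -0.01 for the insulin-like growth factor axis (10) and -0.04 for water, ion and solute transport (13). In the fixed panel of 38 genes, 30 were tested, 7 had no probe under their name and 1, ACTB, was below the filter. Of the 30, 4 met the criterion (EPAS1 and STAR higher, ARNT and AHR lower), and 16 were bounded within 2-fold, counting ITGAL near background. Of all named genes 1.71% met the criterion, and the panel was chosen with earlier results of these data known.

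The widest variation lay between fetuses of the same group. TTR, which encodes transthyretin and is made in the choroid plexus, the secretory tissue of the brain ventricles, had levels of 0.18, 6.41 and 1.97 in NC and -0.55, 6.14, 0.15 and 2.35 in NK. NC2 and NK2 were both very high and saturated, NC1, NK1 and NK3 were low, and the groups covered the same range. The difference was -0.83 (SE 2.07). IGF2, a growth factor that the choroid plexus also makes, was at -1.68, 1.99 and -0.15 in NC and -1.96, 4.30, 0.09 and -0.79 in NK. It too was highest on the 2 arrays of number 2. For the other genes of the list, AQP1 and CLDN1, NK2 stood alone: CLDN1, a tight junction protein, was at -1.71 on NK2 and between -5.30 and -4.45 elsewhere, and AQP1, a water channel, at -2.12 against -7.14 to -6.07. CLDN3 varied little on its brightest probe, from -1.97 to -1.30, but its probe A_70_P068046 was at -3.29 on NK2 and between -8.71 and -5.40 elsewhere.

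**Figure D5:**
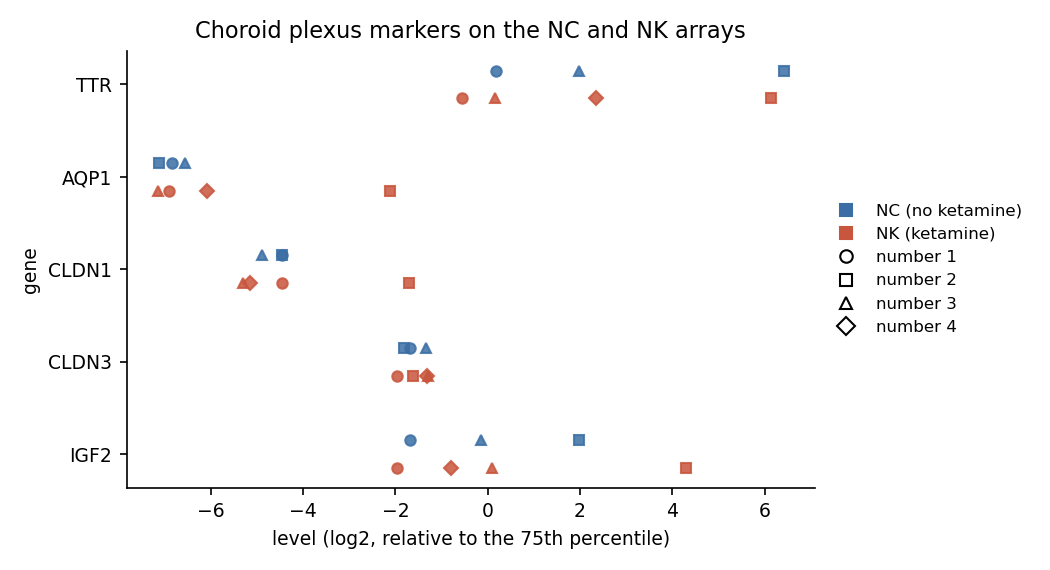
Log2 level relative to the 75th percentile of the array (x axis) of the 5 choroid plexus genes tested, with NC in blue, NK in red and a marker shape for each replicate number. TTR and IGF2 are high on NC2 and NK2, and AQP1 and CLDN1 on NK2 alone.

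The mean level of the 5 choroid plexus genes was -2.90, -1.0 and -2.19 in NC and -3.17, 1.00, -2.70 and -2.19 in NK. As their plot shows, this list follows the array and not the group. TTR gave its brightest signal, which does not rank abundance between genes, and 0 of the 5 met the criterion. The list median was 0.36, the highest of the marker lists with more than 2 genes tested, but 1.01 on slide 1, -0.20 on slide 2, 0.76 with the replicate block and -0.01 without both arrays of number 2. Leaving those 2 arrays out, a choice made after seeing the data, gave 56 higher probes in place of 89. The part of choroid plexus RNA in the group difference was not tested otherwise.

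More genes shared the pattern of NK2. The levels of 298 probes spanned more than 3 log2 units over the 7 arrays, against a median span of 0.585 for all probes. Of these, 102 were highest on NK2, 52 on NC3 and 22 to 36 on each of the others, and 13 met the criterion. They name 46 genes, 18 of them with a probe highest on NK2, and the following were picked after their values were seen. APOA1, a lipoprotein component, was at 1.22, 2.12 and 1.51 in NC and 0.91, 4.92, 1.51 and 1.76 in NK. IGFBP2, which binds insulin-like growth factors, was at 5.89 on NK2 and between 1.87 and 2.81 on the others. BMP4, a secreted signal of dorsal brain tissue, was at -2.72 on NK2 and between -6.92 and -5.39 on the others by probe A_70_P030206. In each case the 3 remaining NK fetuses lay near or within the range of NC.

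Other wide genes did not follow NK2. ADCYAP1, which encodes the neuropeptide PACAP, was at -1.17, 1.89 and 2.42 in NC and 0.21, 0.67, 2.47 and -1.01 in NK by probe A_70_P051251. NC1 and NK4 were low and NC3 and NK3 high, and the groups covered the same range. NPVF, the precursor of RFamide peptides, ranged from -1.20 to 0.55 in NC and from -3.16 to 0.54 in NK, with NK1 the lowest. AURKA, a mitotic kinase, was at -1.58 on NC1 and between -5.09 and -4.28 on the others.

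Read by their brightest probes, 0 genes of the 10 marker lists met the criterion. CYBB and ITGAL did so as lower on another probe near background, as given above. All 3 astrocyte genes were bounded within 2-fold (median -0.06). Microglia and macrophage genes, 7 tested, had a median of 0.07, and 1 of them was bounded. FCER1G, a receptor chain of myeloid cells, was nearly level, between -1.49 and -1.31 in NC and -1.45 and -1.34 in NK. CYBB, CLEC6A and FCGR2B were each well above background on 1 of the 7 arrays. The medians were 0.00 for endothelium, 0.14 for meninges and mesenchyme and -0.003 for lymphocytes, with 5 genes each. HBB, a beta globin and 1 of 2 red blood cell genes tested, differed by 0.45 (SE 0.46), and AHSP by 0.63 (SE 0.72). The 2 neutrophil genes, CATHL3 (-1.41, SE 1.36) and LTF (-0.09, SE 0.74), had the lowest median, -0.75. Their part in the differences above was not tested.

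Ketamine was also compared with none after hypoxia (HK against HC), which shares no array with NK against NC. Of the 89 probes higher in NK, 43 (48.3%) were higher in HK than in HC, against 55.4% of all probes. Of the 134 lower in NK, 43 (32.1%) were lower in HK, against 44.6% of all probes. At the criterion, 2 of the 89 and 2 of the 134 moved the same way, and 2 and 18 the other way, against 359 higher and 235 lower in HK among all 12545. Of the 17 named genes 10 had the same sign after hypoxia, but 1 met the criterion in the same direction, MYC (-0.32), and 1 in the other, ARNT (0.35). MYC was thus lower with ketamine in both settings, by probe A_70_P030411.

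The difference between both ketamine effects, HK-HC minus NK-NC, met the criterion for 431 probes (3.44%), 307 positive and 124 negative, and 0 passed adjustment in limma (smallest adjusted p 1). With the replicate block within oxygen groups, which gives no weight to NK4 and HC5, these counts were 476 and 283, and over all groups the negative count was 244. Among the 17 genes, 6 met the criterion for this difference, including ARNT (0.84), AHR (0.67) and glut4 (-2.12). Choosing genes by NK-NC pushes this difference the opposite way, because the same NC and NK arrays enter both, so these values are given as a description.

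In size, ketamine in normoxia had the smallest of the 3 contrasts. The median absolute difference was 0.10 for NK-NC, 0.16 for HC-NC, which shares the NC arrays, and 0.12 for HK-HC. Differences over 2-fold numbered 141, 422 and 186. Group sizes differ between the contrasts, and the order was not tested.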

How the data were processed

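RNA from the hippocampus of 16 fetal sheep was measured, 1 array per fetus, on 2 slides of 8 arrays. The authors deposited scanner output in which, per the file headers, the spot intensity had been background-corrected and detrended inside each array by Feature Extraction 10.1.1.1 and left unnormalized across arrays. The authors also deposited a table of log2 values, with a column median of 8.66 on each array, for which the scale offset and the normalization are not given in the sources used here. The submitters' processing notes name limma and R 2.15.1.

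The log2 of the processed intensity was taken, the 75th percentile of the non-control spots of each array was subtracted, spots marked as outliers were left out (3 to 13 on each of the 7 arrays), and spots of a probe were averaged. A probe was tested if 3 or more of the 16 arrays had it well above background. Saturated spots were kept. Of 15008 probes, 696 were named through an accession, 504 by symbol, 24 by synonym and 211 by the file's name alone, and 13573 have none.

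All 4 groups entered one linear model (limma 3.58.1, R 4.3.3; 12 residual degrees of freedom, prior 2.18), with two-sided moderated tests and Benjamini-Hochberg adjustment over all probes. Tables and plots used Python 3.11.15, pandas 2.3.3, numpy 2.4.6 and matplotlib 3.10.9. Distances between arrays were compared by an exact permutation test. The fit and that test were tested on simulated data.

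The named genes were a panel of 38 genes by their brightest probe, up to 12 raised and 12 lowered genes with the largest differences among named probes that met the criterion and were well above background on every array of NC or of NK, the other probes of those genes, and 2 raised and 2 lowered unnamed probes with the smallest p. The rule found 7 raised and 10 lowered genes, of which 1 is counted but not reported here by name. The 21 pathway lists and 10 cell type lists were described by counts and medians, each gene by its brightest probe. The members and lists were chosen with earlier results of these data known.

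Arrays with the same number in the sample labels were more alike on average. Deviations from the group mean correlated over probes at 0.375, 0.31 and 0.206 for NC and NK arrays of the same number. The mean was -0.1 for other pairs, although NC3 and NK4, which share a slide, reached 0.23. Deviations cancel within a group, so positive values for some pairs draw the others down. The number coincides with slide and array row, so pairing of samples and position cannot be told apart. The study used mostly twins but does not tie the numbers to pregnancies.

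Alternatives were normexp background correction (offset 50), quantile and median scaling, the deposited table, other filters, slide, array row and replicate blocks, each slide alone, only the 7 arrays, weights for arrays, a robust prior with a trend, a single probe for each gene, and leaving out each array. Normexp without local background, leaving out NC2 and NK2 together, and a floor for arrays without signal well above background were added after seeing the data.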

Additional observations from a re-analysis of the deposited data

Results flagged for a closer look

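Among the 4 NK arrays, a value was looked at again when its gap to the nearest other array, as a share of the range of the group, was above Dixon's 95% limit, which chance gives in about 1 of 20 groups. This held for 9 of 61 groups of values checked. On NK3 these were CXCL8 at -7.50, NPPC at -3.05, the second IRAK4 probe at -4.73 and the second TRAF3 probe at -2.14. On NK2 they were the second EPAS1 probe at -4.86, the second ATP7B probe at -2.72 and A_70_P049071 at -3.63. TLR5 was high on NK1 at -5.10, and A_70_P032026 was high on NK4 at -5.31.

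For 14 probes the effect of ketamine in hypoxia minus that in normoxia met the criterion, with an adjusted p of 1 in limma for each. It was positive for GRIA4 (0.66), ARNT (0.84), AHR (0.67), TRAF3 (0.60 and 0.54), BAX (0.42), A_70_P063866 (1.65) and A_70_P049071 (0.47). It was negative for STAR (-1.13), glut4 (-2.12), TPSB2 (-1.05 and -1.72), A_70_P032026 (-0.76) and A_70_P030676 (-1.45). No NC array was well above background for STAR, the second TPSB2 probe or A_70_P030676, so the sizes for those are uncertain. Most of the 14 probes were chosen by NK-NC, which tilts the difference the opposite way.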

How the results depend on the processing

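The count after adjustment stayed at 0 under all 26 alternatives. The distance between groups minus that within stayed below 0 under the 19 for which it was computed, from -0.0706 (normexp) to -0.014. In place of 89 higher probes, the count was 10 with normexp, 31 with normexp without local background, 44 when probes had to be well above background on all 16 or on all 7 arrays, 56 without NC2 and NK2, 162 with array weights and 67 to 156 with 1 array left out. In place of 134 lower probes it was 8 with normexp, 83 with normexp without local background, 227 with no filter, 230 with the 7 arrays alone, 251 with array weights and 107 to 182 with 1 array left out. With the replicate block within oxygen groups the counts were 150 and 237. That block moved no count of adjusted calls.

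The median absolute difference was 0.308 with normexp, 0.036 in the deposited table (0.016 against 0.208 in the dimmest of 4 equal sets) and 0.1 to 0.133 with 1 array left out. Intervals within 2-fold numbered 5826 with normexp and 9533 to 10037 with 1 array left out. Higher probes without overlap numbered 338 with normexp, 96 with normexp without local background, 1479 and 3544 on slides 1 and 2, 674 without NC2 and NK2 and 293 to 739 with 1 array left out. Lower ones numbered 117 with normexp, 1909 and 3649 on the slides, 805 without NC2 and NK2 and 461 to 897 with 1 array left out. Fewer arrays overlap less often by construction.

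The difference between ketamine effects was positive for 58 probes and negative for 40 with normexp, positive for 190 on slide 1, positive for 476 and negative for 283 with the replicate block within oxygen groups, and negative for 244 with that block over all groups. It was negative for 216 with array weights and 54 with normexp without local background. With 1 array left out it was positive for 231 to 367 and negative for 92 to 159.

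Under normexp the sign turned for 24 of the 59 probes of the panel, the named genes and the unnamed ones. Past the criterion these include ARNT (0.82 and 0.76), AHR (0.84), TGF-A (0.79), DDIT3 and TLR5 (0.78 each), IRAK4 (0.69), TRAF3 (0.13 and 0.28), A_70_P063866 (0.59) and A_70_P049071 (0.35), and among the others GRIA4 (0.45), TLR4 (0.87), IL1B (0.61), PTX3 (0.13), PTGS2 (-0.01), GAPDH (0.19) and HIF1A (0.23). The median over all probes was 0.28 there, and 0.91, 0.50, 0.09 and -0.10 from the dimmest to the brightest of 4 equal sets. ATP7B turned to -0.31 in the deposited table. With arrays that lack signal well above background taken at their dimmest marked spot, or as measured where brighter, a choice made after seeing the data, TPSB2 moved from 0.76 to 0.28. The cause was not tested. Signal over background limits the dim probes most, and 3 against 4 arrays leave a median interval of 0.41 on either side.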
